A study of Caenorhabditis elegans with 2 samples.

Results

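The cuticle collagen genes of Caenorhabditis elegans were examined for binding of the homeodomain protein CEH-28. Protein-coding genes were taken by name from the Ensembl annotation of WBcel235, the assembly also called ce11. All col-, rol- and sqt- genes, bli-1, bli-2 and bli-6, 11 dpy- genes and lon-3 were taken. These were 178 of 19973 protein-coding genes of the 6 chromosomes, and 1 name of the rule, ram-4, matched no gene name. RefSeq gives a collagen product to 177 of them. The exception was rol-3, named there as Protein roller-3 and known as a receptor tyrosine kinase, so values are also given without it.

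The data were ChIP-seq peak lists, which mark where fragments bound by the tagged protein pile up in the genome, from L3 larvae of strain OP241 taken whole, with both sexes pooled and age unknown. The worms carried wgIs241, an integrated transgene with eGFP-tagged ceh-28, and the ed3 mutation of unc-119. All samples form 1 group, with 2 biological replicates, so shares are set beside those of all genes and no conditions are compared. The larvae were pooled whole, so the cells in which a site was bound are unknown.

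The cuticle is a collagen-rich coat that the hypodermis secretes anew at each larval stage before the old one is shed. Cuticle collagens are small triple-helical proteins made by a large gene family. Their transcripts rise and fall with the moulting cycle, and mutants in single genes give short (dumpy), long, rolling, squat or blistered worms. CEH-28 is an NK-2 class homeodomain protein known to act in M4, a pharyngeal neuron. M4 also expresses DBL-1, a TGF-beta ligand whose pathway sets body size through genes that include cuticle collagens.

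In the peak lists a gene was called bound when the summit of a peak lay between 1000 bp upstream and 200 bp downstream of any of its annotated 5' ends. The thresholded list, made by the authors from both replicates, held 3531 peaks, of which 1863 had their summit in the window of at least 1 gene. Relaxed lists of 30000 peaks each, from the pooled data and from either replicate, reach far below that threshold and are recorded by the authors as peaks and background. Read depth is unknown because the lists hold no read counts. Neither gene of the transgene stood out, since ceh-28 had no summit in any list and unc-119 had relaxed summits alone.

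Sequences at 4 of the collagen peaks are shown to let the sites be compared. They are the 101 bases of the plus strand centred on the summit, from the RefSeq sequence of ce11, and lie outside annotated exons. Capitals mark AATCGAT or AATCAAT, which were frequent at the summits of the whole list, and AGATAA or TGATAA, the core sequence of GATA factors, on either strand. The peaks of rol-3 and col-104 had the highest signals among those outside exons that carried the first kind of sequence, and the peaks of col-159 with col-160 and of col-96 carried the second.
rol-3, chrV:8238456-8238556: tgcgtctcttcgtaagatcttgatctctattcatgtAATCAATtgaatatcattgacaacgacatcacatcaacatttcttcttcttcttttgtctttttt
col-104, chrIV:1355311-1355411: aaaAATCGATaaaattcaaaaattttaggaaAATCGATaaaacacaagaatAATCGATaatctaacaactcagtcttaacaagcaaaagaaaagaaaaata
col-159 and col-160, chrV:13202451-13202551: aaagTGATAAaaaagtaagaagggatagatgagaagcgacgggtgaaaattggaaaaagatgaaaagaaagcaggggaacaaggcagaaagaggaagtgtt
col-96, chrIII:11706815-11706915: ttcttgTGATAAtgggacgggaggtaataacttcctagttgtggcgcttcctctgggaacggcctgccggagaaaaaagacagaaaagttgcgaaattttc

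Few cuticle collagen genes were bound. A thresholded summit lay in the window of 11 of 178 (6.18%, 95% Wilson interval 3.49% to 10.7%), where 11.2% of all protein-coding genes had one. Intervals here cover counting error over genes alone, and neighbouring or related genes are not independent. Without rol-3 the count was 10 of 177 (5.65%). The bound genes were rol-3, col-38, col-104, col-71, col-8, col-159, col-160, col-63, col-45, col-101 and col-96. None of the collagens known for a body-shape phenotype was among them, since rol-3 is no collagen.

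The 10 peaks that served these 11 genes were of moderate signal, a value the authors gave to each peak and that was ranked within a list alone. Their signals ran from 72.4 to 166 with a median of 94.6 (90.2 without rol-3), where all promoter peaks had a median of 107 and a maximum of 2022. Of the 10 peaks, 3 lay above the median of promoter peaks. The strongest was that of rol-3, at rank 1016 of the thresholded list, so no collagen window held any of the 1000 strongest peaks, where 612 of all genes (3.06%) had one in theirs.

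The rol-3 summit (chromosome V, 8238506) lay 97 bp upstream of the gene in intergenic sequence. Its signal was 166 in the pooled list, 93.1 in replicate 1 and 67.2 in replicate 2, at ranks 1016, 1007 and 1223. The ranks were close in all 3 lists, and no other gene had this summit in its window.

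The col-104 summit (chromosome IV, 1355361) lay 56 bp upstream of the 5' end, the shortest distance among the bound genes. Its signal was 112 in the pooled list, 79.6 in replicate 1 (rank 1247) and 34.2 in replicate 2 (rank 3477). The sequence shown above has 3 copies of AATCGAT, centred 44 and 16 bp to the left of the summit and 4 bp to its right. Its neighbour col-105, which lies 2431 bp away, had no thresholded summit.

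A single summit (chromosome V, 13202501) served both col-159 and col-160, which lie on the same strand and overlap. It was 324 bp upstream of a 5' end of col-159 and 312 bp upstream of one of col-160, with a signal of 90.2. The ranks were 2630 in replicate 1 and 2216 in replicate 2. These 2 genes thus count 1 peak between them, and with windows around start codons in place of 5' ends col-159 was no longer counted.

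Another 3 peaks were shared with a gene that is no collagen and has the nearer 5' end on the other strand. The col-38 summit (chromosome II, 8569575, signal 135) lay 487 bp upstream of col-38 and 352 bp upstream of rpl-5, a ribosomal protein gene. The col-71 summit (chromosome II, 3502849, signal 102) lay 279 bp from col-71 and nearer to Y49F6B.2, which RefSeq names as an Fcf2 pre-rRNA processing domain protein. The col-8 summit (chromosome III, 7021418, signal 99.1) lay 818 bp upstream of col-8, in the 5' UTR of rfl-1, the catalytic subunit gene of the NEDD8-activating enzyme. Peaks in the windows of more than 1 gene made up 27.0% of all promoter peaks. With each summit given to its nearest gene, 7 collagen-rule genes were bound (3.93%, against 8.75% of all genes).

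The remaining 4 bound genes had peaks of lower signal. The col-63 summit (chromosome I, 8245526, signal 87.4) lay 563 bp upstream, in the 3' UTR of the neighbouring homeobox gene ceh-8. The col-45 summit (chromosome I, 116296, signal 85.0) lay inside an intron of col-45, 166 bp upstream of its internal 5' end, with AATCGAT matches centred 1 and 31 bp from the summit. The col-101 summit (chromosome IV, 326705, signal 74.6) lay in a 5' UTR of col-101 and in an intron of drl-1. The col-96 summit (chromosome III, 11706865, signal 72.4) lay 100 bp upstream. In the col-96 window 28.1% of the 32-base words occur more than once in the genome, the highest share among the bound genes, and how reads from such words were placed is not given in the sources used here.

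**Figure D1:**
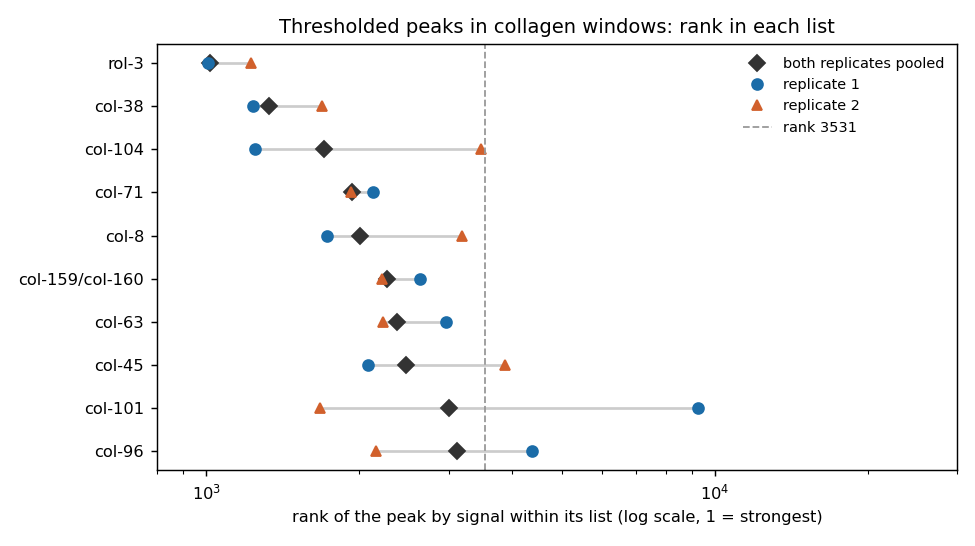
Rank by signal (horizontal, log scale, 1 is the strongest) of the 10 thresholded peaks in collagen windows in the pooled list (diamonds) and of the strongest overlapping peak in replicate 1 (circles) and replicate 2 (triangles), with a dashed line at rank 3531. The peaks of rol-3, col-38, col-71, col-159 with col-160, and col-63 have close ranks in both replicates. That of col-101 ranks 9253 in replicate 1 and 1673 in replicate 2.

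All 10 peaks overlapped a peak in both replicate lists. Among the 3531 strongest peaks of each replicate were the partners of 8 in replicate 1, of 9 in replicate 2 and of 7 in both. Of all promoter peaks, 73.5% had a partner of that rank in both. The peaks that fell short in 1 replicate were those of col-45 (rank 3863 in replicate 2), col-96 (rank 4368 in replicate 1) and col-101 (rank 9253 in replicate 1). At col-101 the peak ranked high in replicate 2 and low in replicate 1.

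The share of bound collagen genes depended on how deep in the lists peaks were read. In the pooled list, the 2000 strongest peaks reached 4 collagen windows (2.25%, Wilson interval 0.877% to 5.63%), against 6.41% of all genes. The 10000 strongest reached 34 (19.1%), against 23.7%. The whole relaxed list reached 71 (39.9%, 33.0% to 47.2%), against 41.6%. In this list the share of all genes lay above the interval for the 3531 and fewer strongest peaks, and inside it from 5000 peaks (10.1%, 6.49% to 15.4%, against 14.7%).

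The counts differed between the replicates. Among the 5000 strongest peaks of replicate 1, 15 collagen-rule genes had a summit (8.43%, 5.17% to 13.4%), against 14.5% of all genes, which lies above the interval. In replicate 2 it was 19 (10.7%, 6.94% to 16.1%), against 14.5%, which lies inside the interval. Those of replicate 2 included dpy-2, dpy-7 and dpy-10, which were not among those of replicate 1. Over the whole relaxed lists, 60 had a summit in replicate 1 (33.7%, 27.2% to 40.9%, against 41.8% of all genes) and 78 in replicate 2 (43.8%, 36.7% to 51.2%, against 42.8%). The share of all genes thus lay above the interval in replicate 1 at the whole list too, and inside it in replicate 2.

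**Figure D2:**
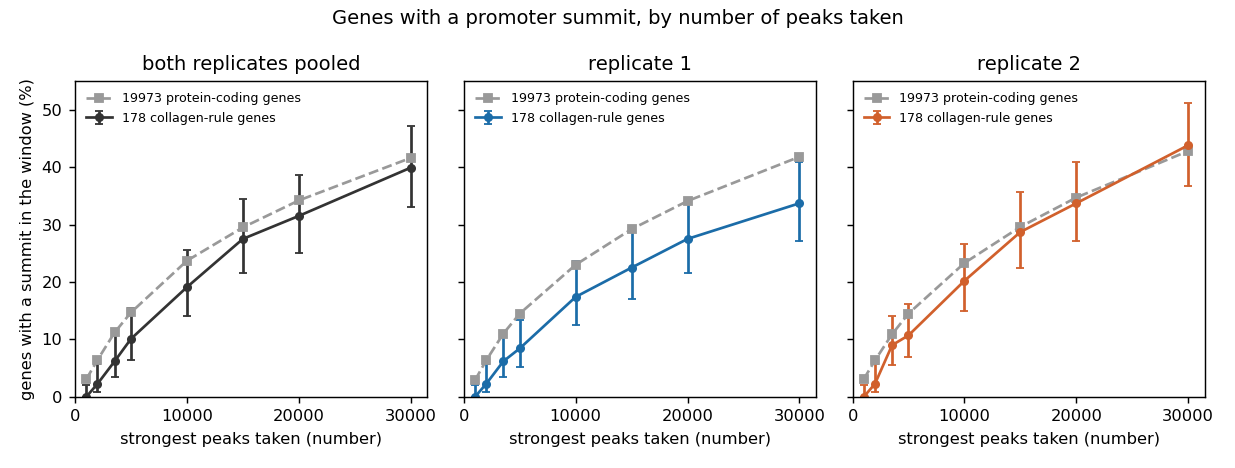
Share of genes with a summit in the promoter window (vertical, percent) by the number of strongest peaks taken (horizontal) in the pooled list, replicate 1 and replicate 2, for the 178 collagen-rule genes (circles, with 95% Wilson intervals) and all 19973 protein-coding genes (grey squares). The collagen curve starts at 0% for 1000 peaks in each list, where all genes are at 2.89% to 3.08%, and at 30000 peaks it is at 39.9%, 33.7% and 43.8%.

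Collagen genes have fewer annotated 5' ends, and so less sequence in their windows. A single 5' end was annotated for 155 of the 178 (87.1%), against 73.7% of all genes, and the mean window was 1261 bp, against 1453 bp. Among genes with 1 annotated 5' end, 7 of 155 collagen-rule genes were bound (4.52%, Wilson interval 2.20% to 9.03%), and 8.86% of all such genes, which lies inside the interval. Among genes with more 5' ends it was 4 of 23 (17.4%), against 17.8%. The 7 bound genes with 1 annotated 5' end include rol-3, which is no collagen. No interval was computed without rol-3, so for collagens alone the place of 8.86% is not known. Relaxed summits of the pooled list lay at 62 of the 155 (40.0%, Wilson interval 32.6% to 47.9%). Of all genes with 1 annotated 5' end 35.3% had one, which lies inside the interval. Repeated sequence was not more common in collagen windows. On average 4.08% of the 32-base words in them recur in the genome, against 5.89% over all genes, and 10 of the 178 windows exceeded 20% (5.62%, against 8.89%).

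The furrow collagens DPY-2, DPY-3, DPY-7, DPY-8, DPY-9 and DPY-10 form the circumferential furrows of the cuticle. None of the 6 genes had a thresholded summit. A relaxed summit lay in the windows of all 6 in replicate 2 and of 5 in replicate 1, where 42.8% and 41.8% of all genes had one.

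The window of dpy-10 held the highest pooled rank of these genes, 3742 (signal 63.5, 386 bp upstream), just short of the thresholded list. Its rank was 7202 in replicate 1 (signal 22.8) and 2221 in replicate 2 (signal 45.1). The neighbouring dpy-2 had a summit at rank 5963 in the pooled list, 20843 in replicate 1 and 3602 in replicate 2, within a span of 284 to 293 bp upstream in the 3 lists. Both genes ranked higher in replicate 2, and the position was steady for dpy-2 and varied for dpy-10.

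The dpy-7 window held a summit in replicate 2 alone, 237 bp upstream at rank 2406 with a signal of 43.0. No summit of replicate 1 or of the pooled list lay there. The pooled list had no summit at all from 7501175 to 7554417 on chromosome X, 53242 bp around the gene. In replicate 2, 44 of the 3531 strongest peaks (1.25%) overlapped no pooled peak, and the one at dpy-7 was the sole one in a collagen window. In replicate 1 there were 29 (0.821%), none in a collagen window.

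The other 3 furrow genes had weak summits in both replicates. Those of dpy-9 were close to its 5' end, 47 and 24 bp upstream in replicate 1 and 2, at ranks 20970 and 7804. Those of dpy-3 ranked 5517 and 11733, and those of dpy-8 ranked 9345 and 9770. The dpy-3 summits lay 223 and 39 bp upstream, so the replicates did not mark the same position.

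**Figure D3:**
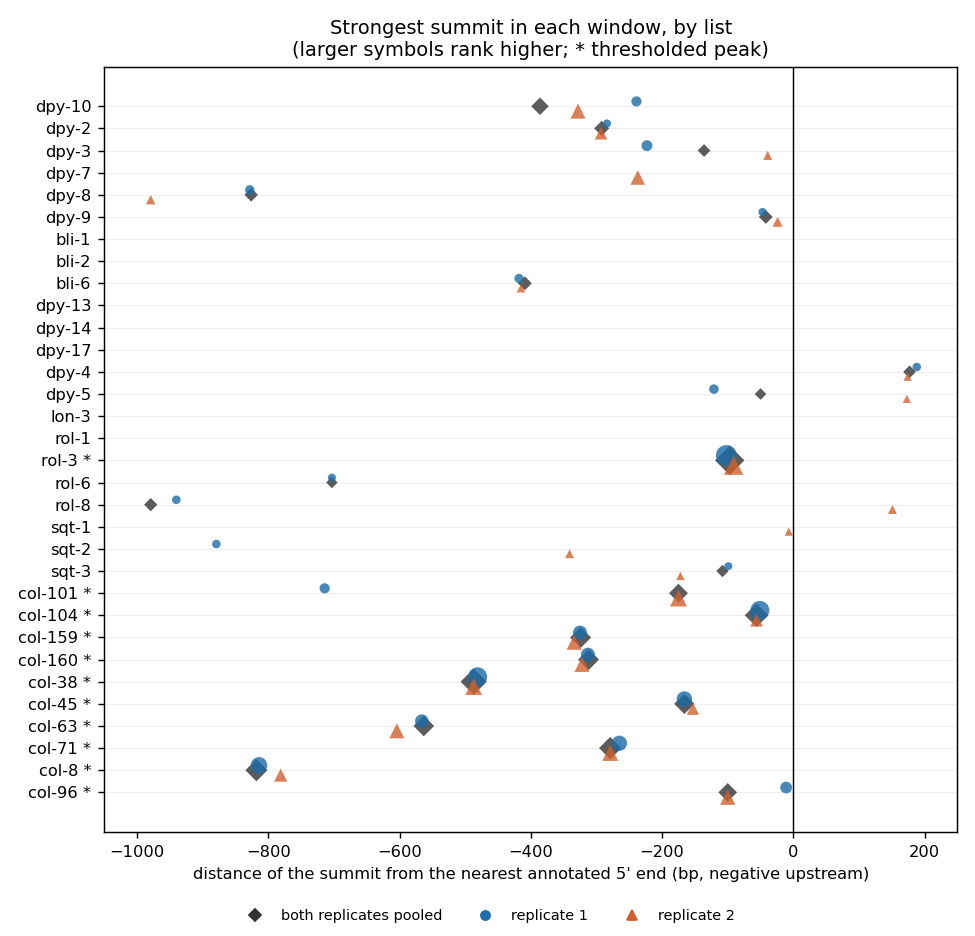
Distance of the strongest summit in each window from the nearest annotated 5' end (horizontal, bp, negative upstream) in the pooled list (diamonds), replicate 1 (circles) and replicate 2 (triangles), with larger symbols for higher ranks, for the members named by phenotype and the bound col- genes (vertical), with a star for thresholded peaks. The symbols of rol-3 are the largest. That of col-101 in replicate 1 (rank 7018) is smaller than those of dpy-7 and dpy-10, which are not bound, in replicate 2 (ranks 2406 and 2221). No symbols are drawn for bli-1, bli-2, dpy-13, dpy-14, dpy-17, lon-3 and rol-1.

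Strut collagens are known from the columns that join the layers of the adult cuticle, and their mutants blister. The windows of bli-1 and bli-2 held no summit in any list. That of bli-6 held summits 418 and 415 bp upstream in replicate 1 and 2, at ranks 10968 and 16766. These positions lie within 3 bp of each other, at low signals of 17.6 and 12.7.

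Of the other collagens with a body-shape phenotype, dpy-13, dpy-14, dpy-17, lon-3 and rol-1 had no summit in any list. The windows of dpy-4, dpy-5, rol-8, sqt-2 and sqt-3 held summits in both replicates, at ranks between 9241 (dpy-5, replicate 1) and 25652 (sqt-3, replicate 1). At rol-8 these lay 940 bp upstream in replicate 1 and 151 bp downstream in replicate 2. At sqt-2 they lay 879 and 341 bp upstream, and at dpy-5 121 bp upstream and 173 bp downstream. In these windows the replicates thus did not mark the same position. The strongest summits lay closer at dpy-4 (188 and 174 bp downstream) and sqt-3 (99 and 172 bp upstream). The windows of rol-6 and sqt-1 held a summit in 1 replicate each, at rank 23023 in replicate 1 and 20844 in replicate 2. All these summits were far below the thresholded ranks. The adult collagen gene col-19 had no summit in any list.

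The col- genes made up most of the list, and 10 of 156 were bound (6.41%, against 11.2% of all genes). In the relaxed lists 37 of the 156 had a summit in both replicates, where 32.5% of all genes did, and 82 in neither, where 47.9% of all genes had none. The 10 collagen genes next in order of pooled signal below the threshold were col-42, col-142, dpy-10, col-62, col-103, col-149, col-97, col-176, col-167 and col-147. Their pooled signals ran from 65.9 to 48.2 and their ranks from 3535 to 5489. The summit of col-42 (chromosome V, 18637729) was just outside the thresholded list, with ranks of 5777 in replicate 1 and 2512 in replicate 2. Of the 10, col-142 and col-103 ranked among the 3531 strongest in replicate 1, and col-42, dpy-10, col-62, col-97 and col-176 in replicate 2, so that none did in both.

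Over the whole list, 49 of 178 genes had a relaxed summit in both replicates (27.5%, against 32.5% of all genes), 11 in replicate 1 alone, 29 in replicate 2 alone and 89 in neither. Across the 49 genes the best ranks in the replicates had a Spearman rho of 0.58, and across the 6483 genes of the annotation with summits in both it was 0.77. These are descriptions across genes, which share libraries and partly windows. The best summits of the replicates lay within 100 bp of each other for 32 of the 49 genes (65.3%), against 62.2% of all such genes. In the 250 bp upstream of the 5' end lay 36.2% of the 94 pooled summits in collagen windows (33.5% over all genes), 34.6% of 81 in replicate 1 (32.4%) and 38.2% of 102 in replicate 2 (32.6%). More than 500 bp upstream lay 25.5% in the pooled list (30.6% over all genes), 30.9% in replicate 1 (31.4%) and 23.5% in replicate 2 (31.3%).

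**Figure D4:**
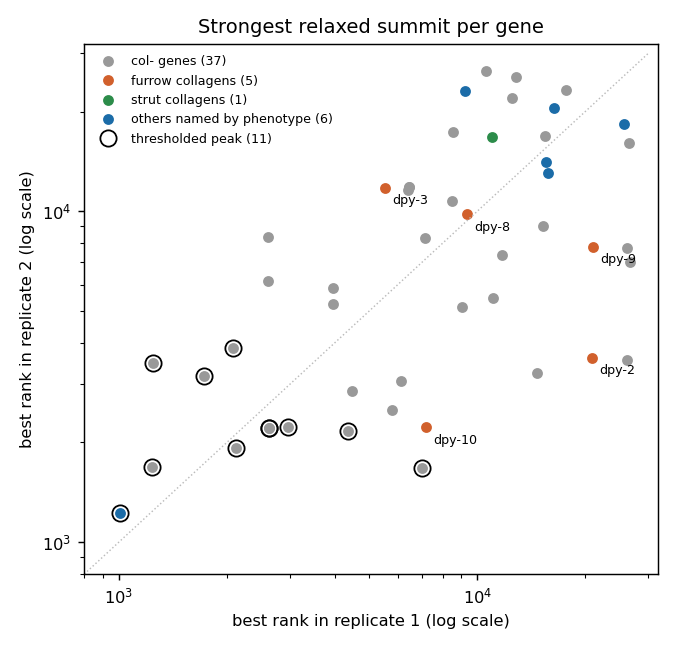
Rank of the strongest relaxed summit in the window in replicate 1 (horizontal, log scale) and replicate 2 (vertical, log scale) for the 49 collagen-rule genes with a summit in both, by class, with rings around the 11 genes with a thresholded peak and a dotted line where ranks are equal. Ringed genes gather at low rank numbers in both replicates, and the furrow genes dpy-2, dpy-9 and dpy-10 lie below the line, with higher signal ranks in replicate 2.

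Many collagen genes lie near another. Within 5000 bp of another lay 53 genes, in 22 groups of up to 5. Bound genes were in 3 groups, namely col-95 with col-96, col-104 with col-105, and col-159 with col-160. In the first 2 groups 1 gene was bound, and in the third the single shared summit counted for both. The group of 5, col-167 to col-171 on chromosome X, had no thresholded summit and relaxed pooled summits at 4 genes. Of genes in groups 54.7% had a summit of the pooled relaxed list, and of the other 125 genes 33.6%, where 41.6% of all genes had one. Thresholded summits lay at 4 of the 53 (7.55%) and 7 of the 125 (5.60%), against 11.2% of all genes. Windows of close neighbours can overlap and hold the same summit, as at col-117 and col-3, both at rank 7707.

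On X, 0 of 30 collagen genes were bound (Wilson upper bound 11.4%), and 10.4% of all X genes were. The share of all X genes lay inside the interval of so few genes. Chromosome IV held the most collagen genes, with 2 of 45 bound (4.44%), against 10.9% of all its genes. On chromosome V it was 3 of 34 (8.82%), against 7.17%, but 2 of the 3 shared a summit and the other was rol-3, which is no collagen. In the outer 25% of the autosomes at each end 5 of 49 were bound (10.2%, against 11.1%), and in the centres 6 of 99 (6.06%, Wilson interval 2.81% to 12.6%, against 11.5%). The counts on chromosome V and in the centres include rol-3, and no shares or intervals were computed there without it.

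A smaller share of collagen promoters than of all promoters held AATCGAT or AATCAAT, the sequences capitalised at rol-3 and col-104. AATCGAT or AATCAAT, searched on both strands, with overlapping matches on opposite strands counted once for presence, lay within 50 bp of 4 of the 10 collagen peaks (40.0%), and of 37.8% of 1853 other promoter summits. The 4 were rol-3, col-104, col-8 and col-45, and without rol-3 it was 3 of 9 (33.3%). In promoters of 300 bp, from 250 bp upstream to 50 bp downstream of the outermost 5' end, either sequence was present in 17 of 178 collagen-rule genes (9.55%, and 9.04% without rol-3), and in 22.6% of all promoters. For AATCGAT alone it was 3.93% against 9.33%. Among genes whose windows held relaxed pooled summits without a thresholded one, 3 of 60 collagen genes had either sequence within 50 bp of the strongest summit, and 22.0% of all 6074 such genes.

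Other sequences did not follow that pattern. CTGCGTC, also frequent at the summits of the whole list, lay at 0 of the 10 collagen peaks and 10.1% of other promoter summits, and in 6.74% of collagen promoters against 4.34% of all. TCAAGTG or TTAAGTG, the sequences known for NK-2 class proteins, lay at 0 of 10 peaks and 0.971% of other promoter summits, and in 10.7% of collagen promoters against 6.12% of all. AGATAA or TGATAA lay at 2 of 10 peaks and 14.7% of other promoter summits, and in 52.8% of collagen promoters against 44.6% of all. Collagen promoters had a median GC content of 38.0%, against 34.3% of all, and the part of base composition in these shares was not tested. A match is a description of the letters and not a bound site.

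**Figure D5:**
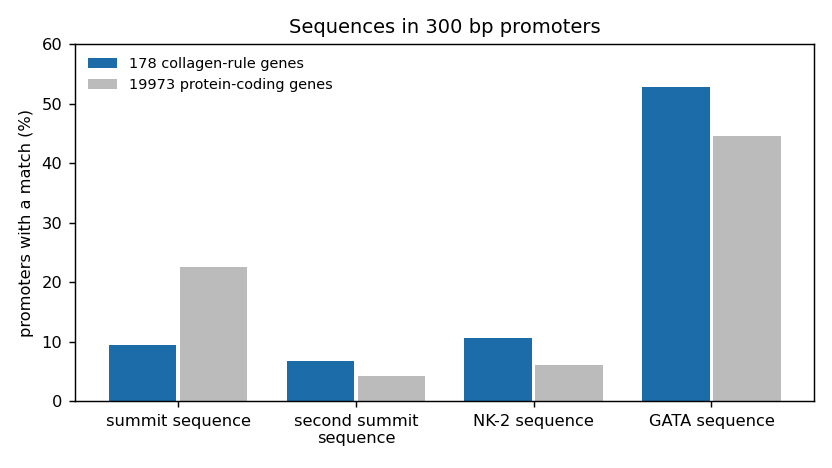
Share of 300 bp promoters (vertical, percent) with a match on either strand, for the 178 collagen-rule genes (blue) and all 19973 protein-coding genes (grey), for the summit sequence AATCGAT or AATCAAT, the second summit sequence CTGCGTC, the NK-2 sequence TCAAGTG or TTAAGTG and the GATA sequence AGATAA or TGATAA. The first is at 9.55% in collagen promoters and 22.6% over all genes, and the other 3 are higher in collagen promoters.

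Some genes whose products act on collagens were bound. Of 13 genes for modification, secretion, cleavage and cross-linking, 4 had a thresholded summit, namely tmem-131, dpy-11, pdi-2 and cyn-9, against 11.2% of all genes. Of all genes with over 1 annotated 5' end, as dpy-11 and pdi-2 have, 17.8% had one. TMEM-131 is needed to secrete collagen, and its summit had a signal of 199 at rank 791, with ranks of 913 and 706 in the replicates, and was shared with smcr-8. The thioredoxin-like DPY-11 acts on the cuticle from within the hypodermis, and the dpy-11 summit lay in an intron, 886 bp upstream of a 5' end, with a signal of 101. PDI-2 is the disulfide isomerase subunit of prolyl 4-hydroxylase, and its gene had a signal of 87.2 at 46 bp upstream, with ranks of 4857 in replicate 1 and 1385 in replicate 2. The cyclophilin gene cyn-9 had a signal of 80.2, 130 bp downstream of the 5' end in an intron.

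The hydroxylase subunit genes dpy-18 and phy-2 and the protease gene dpy-31 had summits in relaxed lists alone, at pooled ranks of 6248, 9247 and 4086. The proprotein convertase gene bli-4, which has 6 annotated 5' ends, and doxa-1 had no summit in any list. Of the cross-linking genes, the dual oxidase gene bli-3 had weak summits in replicate 1 (rank 9888) and in the pooled list (rank 16172), and the peroxidase gene mlt-7 had one in replicate 1 alone (rank 23933). Of the same group of genes, tsp-15 had summits in the pooled list (rank 9637) and in both replicates (ranks 16574 and 7627). A weak summit at bli-5 lay in replicate 2 alone (rank 20821).

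Among 9 regulators of the cuticle and moult, 3 were bound, namely myrf-1, grh-1 and nhr-23, against 11.2% of all genes and 17.8% of those with over 1 annotated 5' end, as grh-1 and nhr-23 have. MYRF-1 is a membrane-bound factor that acts in the moult, and its summit 314 bp upstream had a signal of 235 at rank 607, with ranks of 675 and 569 in the replicates. The Grainyhead gene grh-1 had a signal of 103 at 444 bp upstream, with ranks of 1962 and 2035. For nhr-23, a nuclear receptor gene of the moulting cycle with 6 annotated 5' ends, the signal was 68.0 and the ranks were 5097 and 2784. Its summit lay 907 bp upstream of a 5' end, and the lowest signal of the thresholded list was 65.9. The GATA factor genes elt-1 and elt-3, nhr-25 and blmp-1 had relaxed summits in both replicates, and lin-29 and bed-3 had none.

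Of 13 other genes of the cuticle and apical matrix 1 was bound, against 11.2% of all genes. It was lpr-3, a lipocalin gene, with a signal of 108 at 182 bp upstream and ranks of 2365 and 1436. The cuticlin genes cut-1, cut-2, cut-3 and cut-4 had no summit in any list. Relaxed summits lay at cut-5 (pooled rank 8574, replicate 2 rank 4405) and cut-6 (pooled rank 5755, replicate ranks 13008 and 4096). A pooled relaxed summit lay at 8 of these 13 genes, where 41.6% of all genes had one. Relaxed summits of both replicates lay at 5 of them, where 32.5% of all genes had them. Of 4 collagen genes outside the cuticle none was bound. The basement membrane collagen genes emb-9 and let-2 had no summit in any list, and mec-5 had weak ones in both replicates. With 4 to 13 genes in a list, single genes move these shares by many percent, and the counts are descriptions.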

How the data were processed

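Peak lists came from whole L3 larvae in 2 biological replicates of 1 group, grouped and numbered by the labels, with fragments of 150 to 350 bp. Per the deposited file records, relaxed lists were called for each replicate and for both pooled against a control. From these 3 came the thresholded list, by the irreproducible discovery rate (IDR). Which aligner, peak caller and settings were chosen is not given in the sources used here. Signal per peak, used as the authors deposited it, only ranked peaks within a list. The deposited −log10 q-value was not used, since most thresholded peaks share its maximum, and lists on ce10 were not used.

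Positions are on ce11, counted from 1, with Ensembl release 115 genes and RefSeq sequence. Summits past an interval's end were set to its last base. Shares have 95% Wilson intervals. Since there was 1 group and the members are related genes, no test was made. The members, lists and sequences searched were chosen with earlier results of these data known. Genes named were every bound member, the next 10 by pooled signal, all members named by phenotype, col-19, genes sharing a bound window, the transgene genes and bound genes of the other lists. Unbound genes of those lists, and members in the accounts of replicates and neighbours, were named after their values were seen. Leaving out rol-3, and comparing the replicates at their 2000, 5000 and 10000 strongest peaks, were chosen after seeing the data. Python 3.11.15, numpy 2.4.6, pandas 2.3.3 and scipy 1.17.1 were used, and the assignment of summits was tested on simulated data.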

Additional observations from a re-analysis of the deposited data

How the results depend on the processing

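The count of bound collagen genes was 11, and ranged from 11 to 16 without replicate 2 or replicate 1, when the 3531 strongest peaks of the remaining replicate were taken. Of these, 9 and 10 were among the 11. It fell to 3 (1.69%, against 5.66% of all genes) with thresholded peaks above the median signal, which takes fewer peaks, and to 7 with each summit given to its nearest 5' end. It was 9 with windows of 500 bp upstream to 100 bp downstream, 13 with 2000 bp upstream, 11 with overlap of peak intervals, 10 with start codons and 10 without rol-3. In each of these 9 settings the collagen share was below that of all genes. Relaxed summits in both replicates were found at 49 genes, and at 22 (12.4%, against 17.6% of all genes) with the 10000 strongest peaks of each list, which takes fewer peaks. The median signal of 94.6 and the 4 peaks with AATCGAT or AATCAAT moved by less than 1.5 times under each alternative run. No paired analysis was possible because there is 1 group. Unknown depth limits all weak summits.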

Other observations

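The pooled relaxed list had 84 stretches of over 50 kb without a summit, 6.48 Mb in all. They held a 5' end of 7 collagen-rule genes (3.93%), namely col-116, col-123, col-14, col-163, col-174, col-85 and dpy-7, and of 8.13% of all protein-coding genes. Of the 7 genes, 3 had a summit in a replicate list. The stretches were looked for after the values at dpy-7 had been seen, and their origin was not tested.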
